A study of Mus musculus with 12 samples.

Results

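The HOX cluster genes encode homeodomain transcription factors. They were taken as every row whose gene name consists of Hoxa, Hoxb, Hoxc or Hoxd followed by a paralog number, with the transcript levels in TPM, a unit scaled for gene length and library size, of each gene identifier added up. The rule found 40 of the 54532 gene identifiers in the files. They carry 39 symbols, because Hoxd4 is listed under 2 overlapping identifiers (ENSMUSG00000101174 and ENSMUSG00000115956). By cluster there were 11 Hoxa, 10 Hoxb, 9 Hoxc and 10 Hoxd identifiers. On the GRCm38 build, Hoxa lies on the minus strand of chromosome 6. Hoxb spans 96194316 to 96368256 on chromosome 11, Hoxc 102921103 to 103036852 on chromosome 15 and Hoxd 74668310 to 74765142 on chromosome 2, each on the plus strand.

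HOX genes lie in clusters that arose by duplication, and genes of the same paralog number in different clusters are each other's closest relatives. In the embryo they are switched on along the body axis in the order in which they lie on the chromosome, so that low paralog numbers act towards the head and high numbers towards the tail. The hindgut and the urogenital sinus, from which the distal colon and the bladder derive, form where the high paralog numbers are active, and adult fibroblasts keep a HOX pattern of their place of origin.

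RNA was sequenced from the distal colon and the urinary bladder of male mice aged 5 to 7 weeks, with 3 libraries in each of 4 groups. All 9 mice carried floxed Yap1 and Wwtr1, the genes of the transcriptional coactivators YAP and TAZ. Y/T KO mice also carried Myh11-CreERT2, a tamoxifen-inducible recombinase expressed from the smooth muscle myosin heavy chain promoter, and Ctrl mice were Cre-negative. Both genotypes received tamoxifen at 1 mg per mouse per day in 5 daily injections, and tissue was taken 7 days after the first. Mice 788 (Ctrl), 783 and 780 (both Y/T KO) gave both tissues. The recombinase acts in smooth muscle cells while the libraries hold whole tissue, and in such bulk samples fewer cells of a type and less RNA per cell cannot be told apart.

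Depth estimated from the coverage columns was 2.80 to 3.94 gigabases of aligned sequence per library. Urothelial markers summed to 4580 to 6067 TPM in bladder and 508 to 691 TPM in colon, where Krt20, which also counts among the colon epithelium markers, gave 479 to 664 TPM of that sum and no other urothelial marker exceeded 17.9 TPM. Colon epithelium markers summed to 3246 to 5182 TPM in colon and 199 to 248 TPM in bladder, although the goblet cell mucin Muc2 did not exceed 0.917 TPM in any colon library. Smooth muscle markers summed to 7366 to 8103 TPM in Ctrl colon and 4838 to 5668 TPM in Y/T KO colon, and to 34390 to 44891 TPM in Ctrl bladder and 16235 to 29842 TPM in Y/T KO bladder. Yap1 transcripts lay at 45.8 to 54.9 TPM in Ctrl colon, 41.3 to 47.0 TPM in Y/T KO colon, 98.6 to 109.8 TPM in Ctrl bladder and 69.4 to 72.1 TPM in Y/T KO bladder. The genotypes thus overlapped for Yap1 in colon and not in bladder, and for Wwtr1 in both tissues. Neither gene passed the test described below between genotypes in either tissue. For Yap1 the log2 fold change was -0.175 in colon and -0.539 in bladder, and for Wwtr1 it was 0.177 and 0.236. At gene level these values alone do not show the deletion. Colon libraries held pancreatic transcripts, with Ctrb1 at 18.9, 2.31 and 52.1 TPM in Ctrl 788, 786 and 787 and 0.344 to 1.08 TPM in Y/T KO mice. Cela1, at 514 to 770 TPM, gave most of the sum of pancreatic acinar markers, which overlapped between genotypes. The part of such tissue in the colon values was not tested. Of the bladder libraries, 3 stand apart: Ctrl 784 and Y/T KO 783 and 780 held prostate transcripts, with the prostate secretory gene Pbsn at 33.8 to 967 TPM against 0 to 0.728 TPM in the others. HOX shares and calls that changed without these libraries are given both ways.

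Of the 40 identifiers, 36 reached 0.5 TPM in at least 3 of the 12 libraries and were tested. In the bladder 36 passed that limit within the tissue, against 24 in the colon. The 12 that passed in bladder alone were Hoxb2, Hoxb8, Hoxd3, both Hoxd4 identifiers and the 7 expressed Hoxc genes, and 0 passed in colon alone. Hoxb1, Hoxc12, Hoxc13 and Hoxd1 passed in neither. The last 3 of these were listed at 0 TPM in all 12 libraries, and Hoxb1 reached 0.290, 0 and 0 TPM in the Ctrl bladders and 0 elsewhere. For a gene that passed only through the tissue where it is high, the limit itself favours a difference between tissues, although not every such gene passed the test below. The counts and medians of tissue differences below therefore describe the genes and give no measure of how unusual they are.

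Summed over all 40 identifiers, HOX transcripts made up 689 ± 52.2 TPM in Ctrl colon, 638 ± 73.9 in Y/T KO colon, 369 ± 36.2 in Ctrl bladder and 365 ± 7.74 in Y/T KO bladder (SD, n = 3 each). The clusters contributed unequally. In Ctrl colon Hoxb supplied 50.2% ± 6.17 of that sum, Hoxa 30.1% ± 2.17, Hoxd 19.5% ± 4.50 and Hoxc 0.0897% ± 0.0456. In Ctrl bladder Hoxa led with 61.3% ± 2.68, followed by Hoxd with 20.3% ± 1.89, Hoxb with 14.3% ± 4.82 and Hoxc with 4.13% ± 0.744. The Hoxb share was 19.8% in Ctrl bladder 784, which held prostate transcripts, and 11.6% and 11.4% in the other two. Hoxc gave the smallest share in both tissues.

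The posterior end carried most of the signal in both tissues. Paralogs 9 to 13 gave 86.4% ± 0.717 of HOX TPM in Ctrl colon and 71.8% ± 3.53 in Ctrl bladder, whereas paralogs 1 to 3 gave 2.20% ± 0.245 and 4.53% ± 0.352. The share of paralogs 9 to 13 was 75.8% in Ctrl bladder 784, which held prostate transcripts, and 69.2% and 70.4% in 785 and 788. Paralog 13 alone held 65.1% ± 2.20 in Ctrl colon and 20.9% ± 6.05 in Ctrl bladder. In Y/T KO mice the share of paralog 13 was 64.2% ± 3.63 in colon and 28.0% ± 5.71 in bladder. Without the 3 bladder libraries that held prostate transcripts, paralog 13 gave 16.5% and 18.5% in Ctrl bladders 785 and 788 and 21.4% in Y/T KO bladder 782, against 27.8% in Ctrl 784 and 31.6% and 31.0% in Y/T KO 783 and 780.

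**Figure D1:**
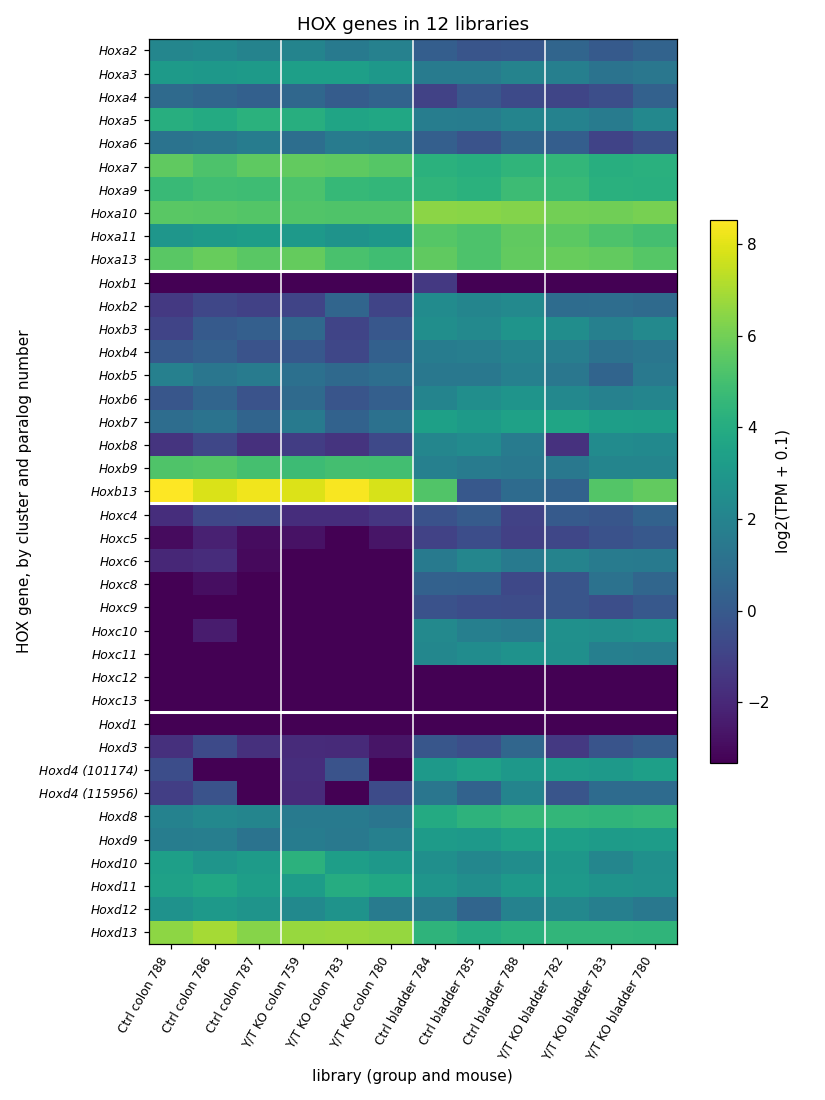
Rows are HOX gene identifiers ordered by cluster and paralog number, each column 1 of the 12 libraries, and the colour gives log2(TPM + 0.1) of the deposited values. The Hoxc block is dark in all 6 colon libraries, and Hoxb13 is bright in the colon and in 3 of the 6 bladder libraries.

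Between Ctrl colon and Ctrl bladder, 31 of the 36 tested identifiers passed the test (limma on log2 of rescaled TPM plus 0.1, Benjamini-Hochberg adjusted p under 0.05 over all 19773 genes tested), where 50.4% of all tested genes passed. Of these 31, 13 were higher in colon and 18 higher in bladder, with 25.1% and 25.3% of all genes passing in these directions. In Y/T KO mice 31 of 36 passed as well, 12 higher in colon and 19 higher in bladder, beside 51.3% of all genes (25.8% and 25.6%). The 29 identifiers that passed in both genotypes did so in the same direction. Hoxd12 and Hoxb8 passed in Ctrl alone, Hoxc4 and Hoxd3 in Y/T KO alone, while Hoxa13 and Hoxb5 were among those that passed in neither. Without the 3 bladder libraries with prostate transcripts, which leaves 1 Y/T KO bladder, 2 of the 29 Ctrl calls that could still be tested were lost (Hoxa9 and the second Hoxd4 identifier). In Y/T KO mice 7 of 28 were lost (Hoxa9, Hoxa10, Hoxb2, Hoxd3, Hoxd10, Hoxd11 and the second Hoxd4 identifier). The median log2 fold change (colon minus bladder) of the 36 was -0.92 in Ctrl and -1.18 in Y/T KO mice, beside 0.014 and 0.0054 for all genes. Both medians include the 12 identifiers that passed the limit in bladder alone, which draws them towards bladder. They give no measure of a lean of HOX genes to bladder. Levels are given below as deposited TPM, and fold changes on the scale of log2(rescaled TPM + 0.1), which understates the change of genes at low level. The 3 libraries of each tissue did not overlap for 31 of 36 identifiers in Ctrl mice, where 57.8% of all genes did not overlap. With TPM as deposited instead of rescaled, the median of all genes shifted to -0.24 in Ctrl and -0.26 in Y/T KO mice, all genes passing split into 3510 higher and 6312 lower in Ctrl colon instead of 4959 and 5003, and the HOX genes passing into 11 and 19.

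**Figure D2:**
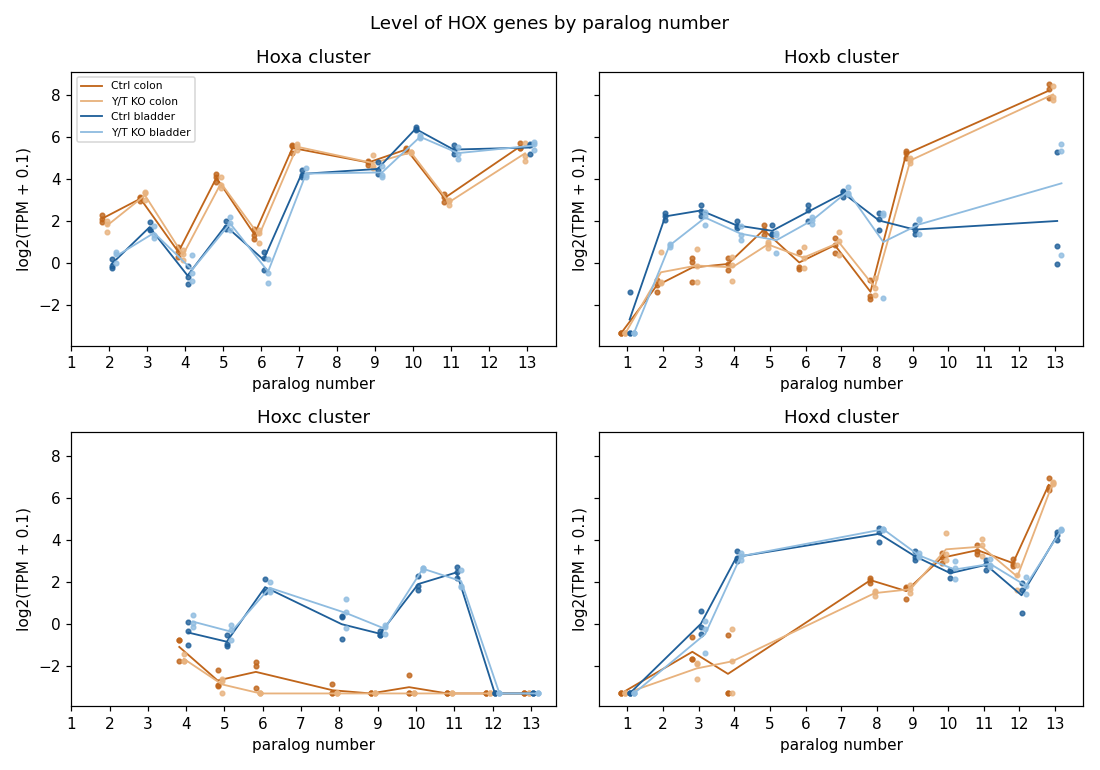
Each panel shows 1 cluster with paralog number on the horizontal axis and log2(TPM + 0.1) of the deposited values on the vertical axis; points are libraries, lines join group means, colon is orange and bladder blue, and for Hoxd4 the identifier ENSMUSG00000101174 is drawn. Colon lines lie above bladder lines at Hoxa2 to Hoxa7, Hoxb9, Hoxb13 and Hoxd13 and below them along Hoxc and from Hoxb2 to Hoxb4.

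Within Hoxa the direction changed along the cluster. Hoxa2 to Hoxa9 were higher in colon and their neighbours Hoxa10 and Hoxa11 higher in bladder, in both genotypes, while Hoxa13 did not pass in either. The promoters on the 2 sides of that change, and that of Hoxb8, are shown as the 250 bases before the RefSeq start on GRCm38.p6, 5′ to 3′ on the gene's own strand. Capitals mark any match, on either strand, to GGAATG (the core bound by TEAD factors, the DNA-binding partners of YAP and TAZ), TTTATG (a core shared by CDX and posterior HOX proteins) or TGATTNAT (a site of PBX and HOX proteins together). Hoxa7, Hoxa9, Hoxa10 and Hoxa11 are on the minus strand of chromosome 6 and Hoxb8 on the plus strand of chromosome 11.
Hoxa7, chr6:52218574-52218823: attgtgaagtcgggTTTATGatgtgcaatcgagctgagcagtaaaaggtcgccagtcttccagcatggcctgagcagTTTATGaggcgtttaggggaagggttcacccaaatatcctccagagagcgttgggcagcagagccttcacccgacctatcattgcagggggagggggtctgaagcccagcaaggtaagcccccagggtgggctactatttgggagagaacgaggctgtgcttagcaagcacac
Hoxa9, chr6:52227371-52227620: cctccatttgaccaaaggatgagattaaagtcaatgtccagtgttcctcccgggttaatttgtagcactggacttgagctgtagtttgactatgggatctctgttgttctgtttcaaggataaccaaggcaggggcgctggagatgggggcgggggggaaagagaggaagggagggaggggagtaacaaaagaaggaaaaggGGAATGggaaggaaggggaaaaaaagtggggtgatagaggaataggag
Hoxa10, chr6:52240855-52241104: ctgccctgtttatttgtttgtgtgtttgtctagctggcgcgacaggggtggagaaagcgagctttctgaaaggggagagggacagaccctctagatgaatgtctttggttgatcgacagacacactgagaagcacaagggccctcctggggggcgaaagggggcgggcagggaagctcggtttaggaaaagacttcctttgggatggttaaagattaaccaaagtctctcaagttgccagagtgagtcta
Hoxa11, chr6:52245811-52246060: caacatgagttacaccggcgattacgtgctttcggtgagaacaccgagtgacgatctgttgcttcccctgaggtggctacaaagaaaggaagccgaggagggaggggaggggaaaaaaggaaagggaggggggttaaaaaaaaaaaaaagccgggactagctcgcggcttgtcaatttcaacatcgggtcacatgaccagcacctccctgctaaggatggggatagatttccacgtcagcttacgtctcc
Hoxb8, chr11:96281655-96281904: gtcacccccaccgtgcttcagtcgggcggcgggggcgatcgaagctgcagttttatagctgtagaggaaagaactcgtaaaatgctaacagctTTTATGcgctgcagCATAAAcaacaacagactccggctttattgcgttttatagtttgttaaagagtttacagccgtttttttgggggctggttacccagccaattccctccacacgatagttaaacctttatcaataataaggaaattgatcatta

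The windows of Hoxa7 and Hoxa9 lie inside the longer gene spans of the files, upstream of a shorter RefSeq transcript, and those of Hoxa10, Hoxa11 and Hoxb8 end where the gene begins. RefSeq gave 24 windows for 22 of the 39 symbols. A TEAD core was in 1 of the 24, that of Hoxa9, and in 12.6% of the 32851 windows of all genes. The CDX and posterior HOX core was in 5 of 24 (Hoxa7, Hoxb8, Hoxd3, Hoxd4 and 1 of 2 for Hoxd11) and in 10.8% of all windows. The joint PBX and HOX site was in 2 of 24, Hoxa2 and the other Hoxd11 window, and in 2.82% of all windows. No searched motif overlapped another in the printed windows. Hoxa10 and Hoxa11 hold none of these letters in the windows shown. HOX windows held a median of 12.5 CpG dinucleotides against 6 over all windows. These matches describe the sequence and were not tested as binding sites.

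Hoxa5, a regulator of lung and gut mesenchyme, had the largest tissue difference of the cluster. Its libraries held 17.0, 14.8 and 18.8 TPM in Ctrl colon, 17.0, 12.1 and 13.3 in Y/T KO colon, 3.17, 3.06 and 3.91 in Ctrl bladder and 3.66, 2.93 and 4.49 in Y/T KO bladder. Every colon library was above every bladder library, and the log2 fold change of colon over bladder was 2.54 ± 0.20 (SE, adjusted p by limma = 1.3e-06) in Ctrl and 2.19 ± 0.20 (SE, adjusted p by limma = 4.45e-06) in Y/T KO mice. Hoxa2, best known from the hindbrain and branchial arches, followed in Ctrl mice at a lower level, while Hoxa3, Hoxa6 and Hoxa11 differed more than Hoxa2 in Y/T KO mice. Hoxa2 had 4.24, 4.85 and 3.87 TPM in Ctrl colon, 3.97, 2.72 and 3.56 in Y/T KO colon, 1.07, 0.767 and 0.826 in Ctrl bladder and 1.34, 0.927 and 1.28 in Y/T KO bladder. Its difference was 2.41 ± 0.24 (SE, adjusted p by limma = 6.87e-06) in Ctrl and 1.71 ± 0.24 (SE, adjusted p by limma = 0.000102) in Y/T KO mice, again without overlap. In the annotation 15.0% of the exonic bases of Hoxa2 are shared with a same-strand gene model, so part of its level is uncertain.

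Hoxa7 was the highest Hoxa gene in 4 of the 6 colon libraries, with Hoxa13 above it in Ctrl 786 and Y/T KO 759. Its TPM were 50.2, 37.6 and 48.2 in Ctrl colon and 51.0, 47.9 and 42.1 in Y/T KO colon, and 18.6, 17.3 and 21.5 in Ctrl bladder and 23.0, 17.1 and 18.1 in Y/T KO bladder. Colon exceeded bladder 2.82-fold in Ctrl mice (adjusted p by limma = 1.74e-05) and 2.93-fold in Y/T KO mice (adjusted p = 1.27e-05). Hoxa3, Hoxa4 and Hoxa6 were higher in colon in both genotypes as well, with log2 fold changes from 0.96 to 2.06, although Hoxa4 in Y/T KO mice had an adjusted p of only 0.0449 in limma and lost its call in 9 of the 12 fits that left out 1 library and in 5 of 9 other settings, TPM as deposited among them. Hoxa9, a leukaemia-associated regulator of blood progenitors, differed least among the Hoxa genes that passed as higher in colon. It measured 25.9, 29.3 and 28.4 TPM in Ctrl colon, 35.6, 24.6 and 23.2 in Y/T KO colon, 21.4, 19.0 and 27.8 in Ctrl bladder and 24.9, 18.3 and 17.5 in Y/T KO bladder. The tissues overlapped in both genotypes, the fold change was 0.57 ± 0.19 (SE, adjusted p by limma = 0.0282) in Ctrl and 0.72 ± 0.19 (SE, adjusted p by limma = 0.00847) in Y/T KO mice, and both calls were lost with TPM as deposited (log2 fold changes of 0.31 and 0.45). The Ctrl call was also lost at the 75th percentile, with FPKM, and without Ctrl colon 786 or 787 or Ctrl bladder 784 or 785 (0.44 without the last). Without the 3 bladder libraries the values were 0.53 (adjusted p by limma = 0.0899) and 0.44 (adjusted p = 0.275).

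Hoxa10 and Hoxa11, both required for patterning of the uterus and vas deferens, went the other way. Hoxa10 was the highest HOX gene of the bladder by mean level, with 88.5, 84.4 and 80.7 TPM in Ctrl and 64.2, 61.7 and 69.1 in Y/T KO bladder, against 44.4, 43.2 and 41.2 in Ctrl and 39.8, 38.8 and 37.8 in Y/T KO colon. Colon minus bladder, the log2 fold change was -0.71 ± 0.10 (SE, adjusted p by limma = 8.08e-05) in Ctrl and -0.47 ± 0.10 (SE, adjusted p by limma = 0.00172) in Y/T KO mice, and no colon library reached a bladder library. Without the 3 bladder libraries with prostate transcripts the Y/T KO value was -0.42 (limma adjusted p = 0.0723) and did not pass. Hoxa11 gave 41.6, 37.2 and 50.0 TPM in Ctrl and 46.9, 36.9 and 31.5 in Y/T KO bladder, and 7.40, 8.70 and 9.62 in Ctrl and 8.03, 6.66 and 7.64 in Y/T KO colon. Its difference was -2.05 ± 0.17 (SE, adjusted p by limma = 2.05e-06) in Ctrl and -2.06 ± 0.17 (SE, adjusted p by limma = 1.95e-06) in Y/T KO mice. Hoxa13, which with Hoxd13 is required for hindgut and urogenital sinus development, was abundant in both tissues. It measured 44.4, 53.6 and 45.2 TPM in Ctrl colon, 52.6, 34.4 and 29.4 in Y/T KO colon, 50.1, 37.2 and 50.7 in Ctrl bladder and 54.1, 50.4 and 42.5 in Y/T KO bladder. These ranges overlap, and the log2 fold change was 0.32 ± 0.20 (SE, adjusted p by limma = 0.214) in Ctrl and -0.10 ± 0.20 (SE, adjusted p by limma = 0.71) in Y/T KO mice.

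**Figure D3:**
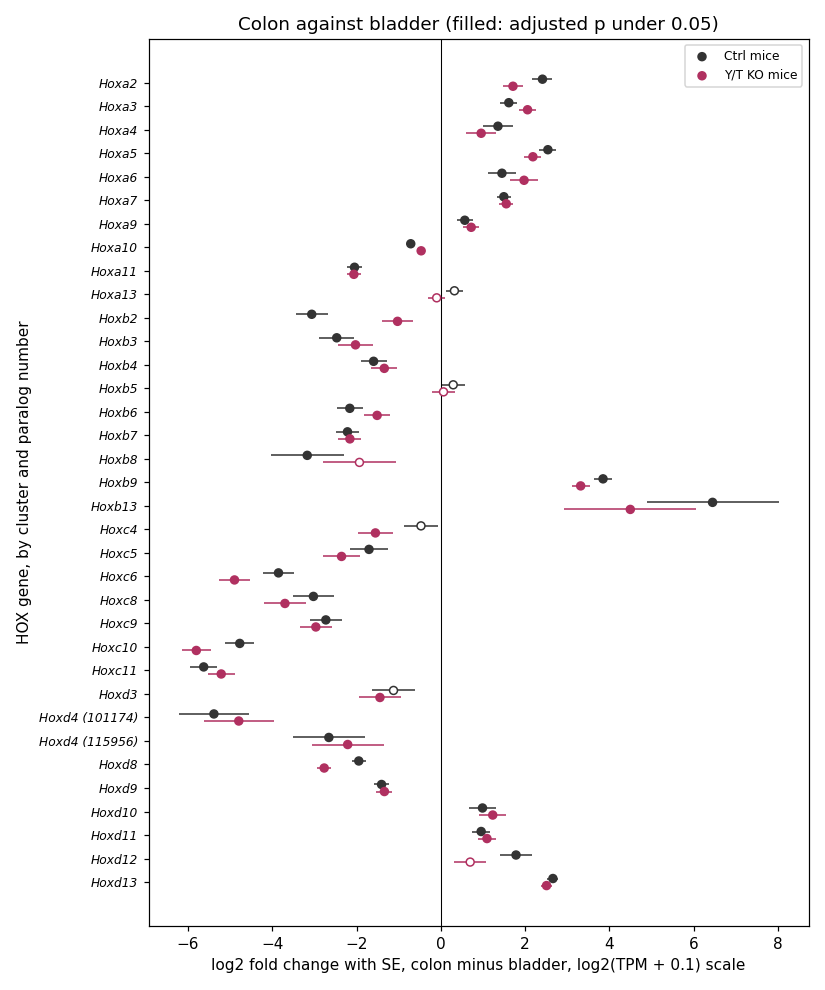
Points give the log2 fold change of colon over bladder for tested HOX identifiers with SE bars from limma, dark for Ctrl and red for Y/T KO mice, and filled points passed an adjusted p of 0.05; the scale is log2(rescaled TPM + 0.1). Hoxb13 has the longest bars, and all 7 tested Hoxc genes lie left of 0 in both genotypes.

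In the Hoxb cluster the lower paralog numbers were higher in bladder and the most posterior genes higher in colon. Hoxb2, Hoxb3, Hoxb4, Hoxb6 and Hoxb7 passed as higher in bladder in both genotypes. Hoxb3, Hoxb4, Hoxb6 and Hoxb7 reached 2.08 to 12.4 TPM in bladder and 0.433 to 2.75 TPM in colon, with Hoxb7 the highest of them. Hoxb5 lay between these neighbours without differing by tissue, at 3.49, 2.41 and 2.94 TPM in Ctrl colon, 1.95, 1.56 and 1.82 in Y/T KO colon, 2.56, 2.55 and 3.47 in Ctrl bladder and 2.48, 1.31 and 2.63 in Y/T KO bladder. Its log2 fold change was 0.29 ± 0.28 (SE, adjusted p by limma = 0.416) in Ctrl and 0.06 ± 0.28 (SE, adjusted p by limma = 0.869) in Y/T KO mice. The latter turned to -0.20 with TPM as deposited.

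Hoxb8 in the bladder split by library. Ctrl bladder held 4.25, 5.15 and 2.95 TPM, and Y/T KO bladder 0.221, 5.22 and 4.77, the first of these being mouse 782. Colon libraries lay at 0.240, 0.470 and 0.211 in Ctrl and 0.342, 0.248 and 0.511 in Y/T KO mice, so the level of mouse 782 fell among those of the colon. The Ctrl difference was -3.17 ± 0.87 (SE, adjusted p by limma = 0.00992), while that of Y/T KO mice was -1.93 ± 0.87 (SE, adjusted p by limma = 0.0838) and did not pass. Without the bladder of mouse 782 the Y/T KO value was -3.26 (limma adjusted p = 6.82e-05), and without the 3 bladder libraries with prostate transcripts, which leaves mouse 782 as the lone Y/T KO bladder, it was 0.72 (adjusted p = 0.388). Hoxb9, by contrast, was evenly high in colon, with 38.1, 40.4 and 32.3 TPM in Ctrl and 27.5, 31.9 and 30.2 in Y/T KO mice, against 3.45, 2.92 and 2.55 and 2.54, 4.16 and 4.09 in bladder. No library of one tissue came near the other, and the difference was 3.85 ± 0.21 (SE, adjusted p by limma = 5.32e-08) in Ctrl and 3.32 ± 0.21 (SE, adjusted p by limma = 1.87e-07) in Y/T KO mice.

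Hoxb13, a gene of hindgut and prostate epithelium, was the highest HOX gene of the colon. It reached 368, 231 and 310.1 TPM in Ctrl colon and 239, 344 and 221 in Y/T KO colon, or 43.7% ± 7.04 and 41.7% ± 6.04 of all HOX TPM (SD, n = 3). In bladder it measured 39.3, 0.865 and 1.65 TPM in Ctrl mice 784, 785 and 788 and 1.21, 40.7 and 51.5 in Y/T KO mice 782, 783 and 780. The bladder libraries thus fell into 3 at 39.3 to 51.5 TPM and 3 at 1.65 TPM or less, with both kinds in each genotype. The high ones are the libraries with prostate transcripts: probasin (Pbsn), a prostate secretory protein, was at 967, 33.8 and 311 TPM in Ctrl 784 and Y/T KO 783 and 780, and at 0 to 0.728 TPM in the other three. Of the 9 seminal vesicle and prostate markers, whose sum ran from 0.757 to 1009 TPM over the bladder libraries, Svs1, Svs2, Svs3a and Pate4 were at 0 in all bladder libraries.

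The neighbouring non-coding gene Gm53 followed the same libraries, at 5.67, 0.712 and 0.512 TPM in Ctrl and 0.893, 5.23 and 7.45 in Y/T KO bladder. Hoxa13 and Hoxd13 did not, with 37.2 to 54.1 and 15.9 to 22.5 TPM over the 6 bladder libraries. Colon exceeded bladder for Hoxb13 by 6.45 ± 1.57 (SE, adjusted p by limma = 0.00645) on the log2 scale in Ctrl and by 4.50 ± 1.57 (SE, adjusted p by limma = 0.0356) in Y/T KO mice. Leaving out the 3 libraries, the differences became 8.08 ± 0.32 (SE; limma adjusted p = 2.64e-07) and 7.94 ± 0.41 (adjusted p = 2.06e-06), the lone Y/T KO bladder being assumed to vary like the other groups. The Y/T KO call was lost without the bladder of mouse 782 (2.77, adjusted p = 0.0965) and without each of the Y/T KO colons (adjusted p 0.0614 to 0.0817). The part of prostate tissue in the bladder level of Hoxb13 was not tested.

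**Figure D4:**
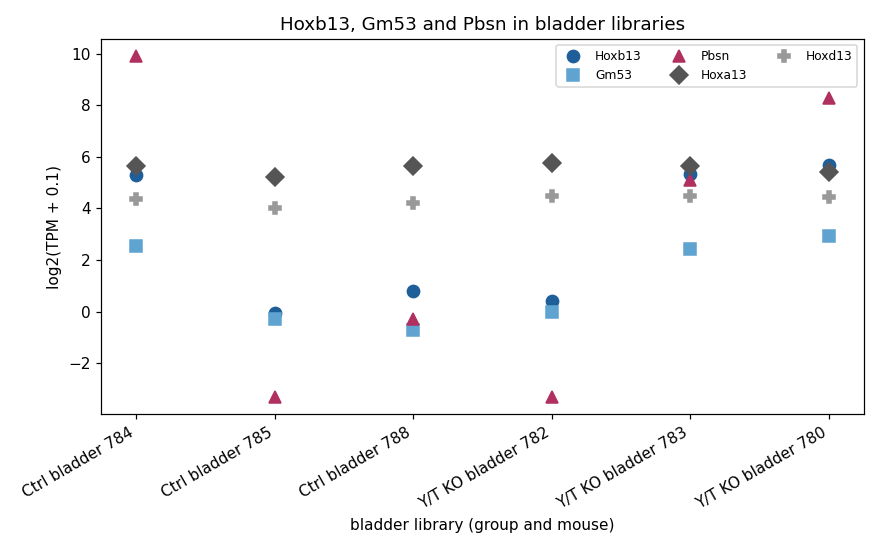
The 6 bladder libraries are on the horizontal axis and log2(TPM + 0.1) of the deposited values on the vertical axis for Hoxb13, Gm53, the prostate gene Pbsn, and Hoxa13 and Hoxd13. Hoxb13, Gm53 and Pbsn are high in Ctrl 784 and Y/T KO 783 and 780, while Hoxa13 and Hoxd13 stay level.

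No Hoxc gene was higher in colon. In Ctrl mice 6 of the 7 tested passed as higher in bladder, and in Y/T KO mice 7 of 7, beside 25.3% and 25.6% of all genes. All 7 reached the limit on low values in bladder alone, which favours that direction. These counts therefore describe the genes and give no measure of how unusual the cluster is. Hoxc10, a limb and lumbar patterning gene, measured 4.68, 3.41 and 2.90 TPM in Ctrl bladder and 6.15, 5.70 and 6.24 in Y/T KO bladder. In the colon it was listed at 0, 0.0864 and 0 TPM in Ctrl mice and at 0 in the Y/T KO mice. The Ctrl log2 fold change was -4.77 ± 0.34 (SE, adjusted p by limma = 5.62e-07), which depends on the value of 0.1 added to levels near 0, and of its exonic bases 8.70% are shared with Hoxc5.

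Hoxc11 reached 4.38, 5.36 and 6.41 TPM in Ctrl and 5.85, 3.32 and 3.20 in Y/T KO bladder and was listed at 0 in all 6 colons, so no fold is given. Hoxc9 was likewise at 0 in all colons and at 0.584 to 0.862 TPM in bladder. Hoxc6 stood at 2.78, 4.28 and 2.84 TPM in Ctrl and 3.86, 2.94 and 2.78 in Y/T KO bladder. In colon it was at 0.148, 0.181 and 0.0213 in Ctrl mice and at 0 in Y/T KO mice. Its Ctrl difference was -3.85 ± 0.38 (SE, adjusted p by limma = 6.5e-06). As for Hoxc10, that value depends on the 0.1 added to levels near 0, and Hoxc6 passed the limit in bladder alone. Hoxc4, at the anterior end, was the one Hoxc gene that stayed above 0 in all colons, with 0.189 to 0.491 TPM there and 0.400 to 1.22 TPM in bladder. Its difference was -0.47 ± 0.41 (SE, adjusted p by limma = 0.369) in Ctrl mice, which did not pass, and -1.55 ± 0.41 (SE, adjusted p by limma = 0.0078) in Y/T KO mice.

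The Hoxd cluster, like Hoxb, was higher in bladder at its anterior and in colon at its posterior end. Hoxd13 was the second most abundant HOX gene in colon, with 90.6, 122 and 82.4 TPM in Ctrl and 105, 106 and 102 in Y/T KO mice, and 20.5, 15.9 and 18.7 and 22.5, 22.1 and 21.6 in bladder. The tissues were far apart in every library, by 2.66 ± 0.13 (SE, adjusted p by limma = 1.99e-08) in Ctrl and 2.51 ± 0.13 (SE, adjusted p by limma = 3.25e-08) in Y/T KO mice. Hoxd12 next to it was at 6.51, 8.42 and 7.00 TPM in Ctrl colon, 4.88, 6.78 and 2.96 in Y/T KO colon, 2.90, 1.34 and 3.73 in Ctrl bladder and 4.55, 3.33 and 2.60 in Y/T KO bladder. Its tissues separated in Ctrl mice, by 1.78 ± 0.38 (SE, adjusted p by limma = 0.00209), and overlapped in Y/T KO mice, where the difference of 0.70 ± 0.38 (SE, adjusted p by limma = 0.146) did not pass. The change of the tissue difference between genotypes had an adjusted p of 0.453, so the 2 values are not shown to differ. Hoxd10 and Hoxd11 were higher in colon in both genotypes by 0.96 to 1.23 on the log2 scale, and 10.8% of the exonic bases of Hoxd11 are shared with Gm28309. The Ctrl call of Hoxd10 was lost with TPM as deposited and at the 75th percentile (limma adjusted p up to 0.0780), and without Ctrl colon 788 or 787 or Ctrl bladder 785 (up to 0.0790). Without the 3 bladder libraries both Y/T KO calls were lost, at 0.88 (limma adjusted p = 0.187) for Hoxd10 and 0.90 (adjusted p = 0.0645) for Hoxd11.

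The direction changed between Hoxd9 and Hoxd10, and Hoxd8 was the highest Hoxd gene in bladder by mean. It measured 14.9, 20.3 and 23.7 TPM in Ctrl and 22.8, 21.7 and 22.7 in Y/T KO bladder, against 3.74, 4.46 and 4.12 and 2.78, 2.80 and 2.36 in colon. Bladder was higher without overlap, the log2 fold change being -1.95 ± 0.16 (SE, adjusted p by limma = 2e-06) in Ctrl and -2.77 ± 0.16 (SE, adjusted p by limma = 1.07e-07) in Y/T KO mice. Hoxd9 also passed as higher in bladder, with 8.06 to 10.8 TPM there and 2.18 to 3.46 TPM in colon. The first Hoxd4 identifier (ENSMUSG00000101174) was at 8.52, 10.7 and 7.79 TPM in Ctrl and 9.27, 8.10 and 10.2 in Y/T KO bladder. In colon it was at 0.595, 0 and 0 in Ctrl and 0.190, 0.729 and 0 in Y/T KO mice. The Ctrl difference was -5.39 ± 0.84 (SE, adjusted p by limma = 0.000256). That value depends on the 0.1 added to levels near 0, and the identifier passed the limit in bladder alone. The second identifier, ENSMUSG00000115956, lay at 0.765 to 3.97 TPM in bladder and 0 to 0.709 TPM in colon. In the annotation 62.3% of the exonic bases of Hoxd3 and 52.3% of those of Hoxd4 are shared with same-strand gene models, so the levels of Hoxd3 and of both Hoxd4 rows are uncertain.

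Comparing Y/T KO with Ctrl mice asked whether induced deletion of Yap1 and Wwtr1 in smooth muscle shifted this pattern 7 days after the first injection. In the colon 0 of the 24 tested HOX genes passed the test of limma with Benjamini-Hochberg adjustment, beside 0.137% of all genes. At an unadjusted p under 0.05 the count was 2, or 8.33% of the 24, against 9.73% of all genes, and no other setting tried gave a call. In the bladder 0 of 36 passed beside 0.302% of all genes, with 3 (8.33%) at an unadjusted p under 0.05 against 14.8% of all genes, and 1 passed when the trend and robust options of limma were left out. The difference between the 2 genotype effects passed for 0 of 36, beside 0.0607% of all genes, with 2 at an unadjusted p under 0.05 against 11.9% of all genes, and no call in any other setting. The median log2 fold change (Y/T KO minus Ctrl) over HOX genes was -0.10 in colon and 0.03 in bladder, beside 0.0063 and 0.0020 for all genes. Ranges of the genotypes did not overlap for 4 of 24 genes in colon (16.7%, against 15.8% of all genes) and for 4 of 36 in bladder (11.1%, against 20.4%). So few genes of any kind passed between genotypes that 0 calls do not show the HOX genes to be unchanged.

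Hoxb2, a hindbrain patterning gene, came closest to a change. In the bladder it had 5.18, 4.11 and 4.61 TPM in Ctrl and 1.73, 1.79 and 1.60 in Y/T KO mice. All 3 Y/T KO libraries were below all 3 Ctrl libraries, the log2 fold change was -1.39 ± 0.21 (SE, adjusted p by limma = 0.0757), and the unadjusted p was 0.000357. In the colon Hoxb2 was low, at 0.292, 0.478 and 0.389 TPM in Ctrl and 0.430, 1.37 and 0.434 in Y/T KO mice, and below the limit for the genotype test there. The effect in colon minus that in bladder was 2.04 ± 0.53 (SE; limma adjusted p = 0.222). Over the other settings and libraries left out, the bladder fold change stayed between -1.46 and -1.05, and its adjusted p ran from 0.0355, without the trend and robust options of limma, to 0.992, without the 3 libraries with prostate transcripts. With colon lower than bladder by -3.06 ± 0.38 (SE, adjusted p by limma = 4.06e-05) in Ctrl and -1.03 ± 0.38 (SE, adjusted p by limma = 0.0396) in Y/T KO mice, the tissue difference of Hoxb2 passed in both. The Y/T KO tissue call was lost in 8 of the 12 fits that left out 1 library, among them those without each Y/T KO bladder, and without the 3 bladder libraries together (-1.01, limma adjusted p = 0.245).

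Hoxa10, the highest HOX gene of the bladder, was lower in all 3 Y/T KO bladders than in all 3 Ctrl bladders with the values given above, by -0.38 ± 0.09 (SE, adjusted p by limma = 0.167), and did not pass. Hoxc10 was higher in all 3 Y/T KO bladders, by 0.73 ± 0.23 (SE, adjusted p by limma = 0.236), and did not pass either. Smooth muscle markers moved with genotype in the same libraries, by the sums given above, and their part in these values was not tested. In the colon the lowest unadjusted p values belonged to Hoxd8, at -0.58 ± 0.21 (SE, adjusted p by limma = 0.465), and to Hoxb5, at -0.66 ± 0.27 (SE, adjusted p by limma = 0.504). The values of both genes were lower in all 3 Y/T KO colons than in all 3 Ctrl colons.

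The most abundant members showed no passing genotype effect. Hoxb13 in colon had a log2 fold change of -0.14 ± 0.25 (SE, adjusted p by limma = 0.872), Hoxd13 of 0.14 ± 0.14 (SE, adjusted p by limma = 0.754) and Hoxa7 of 0.10 ± 0.19 (SE, adjusted p by limma = 0.88). In bladder, Hoxa13 gave 0.10 ± 0.16 (SE, adjusted p by limma = 0.806) and Hoxa11 -0.17 ± 0.16 (SE, adjusted p by limma = 0.666). Hoxb13 in bladder gave 1.79 ± 2.01 (SE, adjusted p by limma = 0.717), with 1 high library in Ctrl and 2 in Y/T KO mice, and -0.01 ± 0.43 (SE) without the 3 libraries with prostate transcripts. Across the tested HOX genes, fold changes ran up to 0.44 (Hoxd10) in colon and from -1.39 (Hoxb2) to 1.79 (Hoxb13) in bladder.

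**Figure D5:**
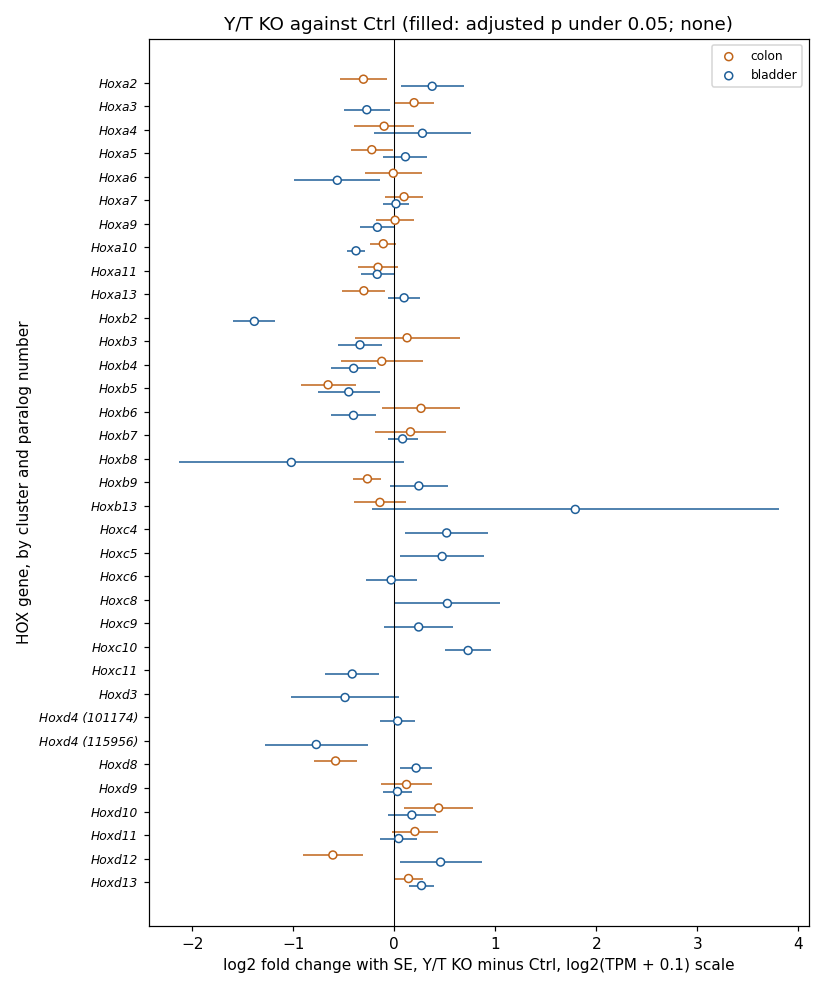
Points give the log2 fold change of Y/T KO over Ctrl with SE bars from limma for HOX identifiers in colon (orange) and bladder (blue), on the log2(rescaled TPM + 0.1) scale. All points are open, since none passed an adjusted p of 0.05; Hoxb2 in bladder lies farthest left with a short bar, and Hoxb13 and Hoxb8 in bladder have the longest bars.

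HOX proteins bind DNA together with homeodomain cofactors of the PBX, MEIS and PKNOX families. Of 9 such genes tested, 0 were higher in colon and 4 higher in bladder in Ctrl mice (among them Meis1, Meis3 and Pknox2), and 0 and 5 in Y/T KO mice (among them Meis1, Meis2, Pbx3 and Pknox2). These are 44.4% and 55.6% of the 9, where 50.4% and 51.3% of all genes passed. The median log2 fold change was -0.80 in Ctrl and -0.81 in Y/T KO mice, beside 0.014 and 0.0054 for all genes. Meis1 ranged from 1.57 to 8.31 TPM in colon and from 26.0 to 60.5 TPM in bladder. None passed between genotypes, and at an unadjusted p under 0.05 in limma there was 1 in colon (Meis1) and 0 in bladder. In colon Meis1 was at 6.09, 8.31 and 6.30 TPM in Ctrl and 1.57, 3.84 and 4.23 in Y/T KO mice, without overlap. Its log2 fold change there was -1.14 ± 0.37 (SE, adjusted p by limma = 0.435).

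Cdx1 and Cdx2, the caudal-type homeobox genes that act upstream of posterior HOX genes and in intestinal epithelium, passed as higher in colon in both genotypes, with Cdx1 at 205 to 409 TPM and Cdx2 at up to 89.7 TPM. In bladder Cdx2 was listed at 0 in all 6 libraries and Cdx1 in 5 of 6. The other 4 genes of that list, among them Pdx1, did not reach the limit for testing. Evx2, which lies beyond Hoxd13, was higher in colon in both genotypes, with 1.29 to 3.11 TPM against 0.519 to 1.10 TPM in bladder, and Evx1, which lies beyond Hoxa13, passed in Y/T KO mice alone.

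Non-coding and other rows inside the clusters numbered 47, of which 27 were tested. In Ctrl mice 11 were higher in colon and 4 higher in bladder, and in Y/T KO mice 12 and 5. All calls came to 55.6% and 63.0% of the 27, beside 50.4% and 51.3% of all genes. Hotair, a long non-coding RNA of the Hoxc cluster, followed its protein-coding neighbours: it was listed at 0 in all 6 colons and stood at 3.34, 3.26 and 4.79 TPM in Ctrl and 4.59, 2.12 and 2.03 in Y/T KO bladder. Hottip, transcribed from beyond Hoxa13, was higher in colon, at 9.56 to 23.0 TPM against 1.49 to 3.40 TPM. Hoxd3os1 was higher in bladder, at 15.7 to 27.4 TPM against 0.708 to 1.97 TPM.

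Hoxa11os, the antisense gene of Hoxa11, ran opposite to Hoxa11. It was higher in colon, with 70.0, 70.7 and 63.8 TPM in Ctrl and 63.4, 71.4 and 74.8 in Y/T KO mice, against 31.5, 23.7 and 37.2 and 36.1, 25.0 and 50.5 in bladder. The log2 fold change was 1.42 in Ctrl and 1.24 in Y/T KO mice. The kit marked strand, but whether strand was used in quantification is not given in the sources used here, so reads of antisense pairs such as this one, Hoxd3 with Hoxd3os1 and Hoxb5 with Hoxb5os may not be fully separated. No row of these lists passed between genotypes in either tissue. Of the non-coding and other rows, 1 of 21 in colon (Hottip) and 1 of 25 in bladder had an unadjusted p under 0.05 in limma. The shares of all genes were 9.73% and 14.8%. Hottip in colon was lower in all Y/T KO libraries than in all Ctrl libraries, by -0.76 ± 0.27 (SE, adjusted p by limma = 0.464).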

How the data were processed

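RNA sequencing of 12 libraries (3 per tissue and genotype) was described. Per the labels, the authors aligned reads with HISAT2 to GRCm38 and assembled transcript levels with StringTie, the versions of which are not given in the sources used here. Each deposited table lists coverage, FPKM and TPM per gene, made by the authors without read counts. Coverage divided by FPKM gave the depth of 2.80 to 3.94 gigabases per library, and intervals from counts could not be given. The deposited FPKM values were used only as an alternative. The deposited TPM values were added up per gene identifier, rescaled by median-of-ratios size factors (0.872 to 1.13), and tested as log2(TPM + 0.1) for genes that reached 0.5 TPM in 3 or more libraries of the fit. The authors' count-based test needs read counts, so limma 3.58.1 (R 4.3.3) was used with its trend and robust options, two-sided, and Benjamini-Hochberg adjustment over all genes at 0.05. Tissue contrasts and the interaction came from 1 fit of 12 libraries, and genotype contrasts from the 6 libraries of each tissue. The fits were also run on simulated data, in which only genes above a set mean level were changed. That run is therefore no check on genes at low level, such as those of Hoxc in colon.

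Mouse numbers pair the tissues, since 3 mice gave both. Deviations from group means correlated at a mean r of 0.0340 over 3 same-mouse pairs and -0.00686 over 15 other pairs, and the genotype groups share no mouse within a tissue. Groups follow the labels. Values of some genes, 1 HOX member among them, are not reported here, although they enter the counts, sums and fits. Exon sharing came from GENCODE M21, which holds 39 of the 40 identifiers, 38 with the same start and end as the files. Promoters came from RefSeq on GRCm38.p6. Values of every library are given for the 5 highest members of each tissue, the 6 largest changes in each direction between Ctrl tissues, and the 2 members of lowest p between genotypes in each tissue. The members, lists and motifs were chosen with earlier results of these data known. Alternatives were other pseudocounts, filters and scalings, FPKM, limma without its options, mouse as a block, and leaving out libraries. Python 3.11.15, pandas 2.3.3 and matplotlib 3.10.9 were used.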

Additional observations from a re-analysis of the deposited data

How the results depend on the processing

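Between Ctrl tissues the count of HOX genes that passed ran from 27 to 31 over 10 other settings and from 28 to 31 with 1 library left out. In Y/T KO mice it ran from 24 to 31 and from 26 to 30. Leaving out together the 3 bladder libraries with prostate transcripts, an alternative chosen after seeing the data, gave 27 and 21 of 33 tested. Of the 31 called in each, 27 in Ctrl and 25 in Y/T KO mice passed the filter on low values under all of these, and 24 and 18 of them kept their call throughout. The 31 and 31 kept their direction wherever they were tested. With mouse as a replicate block the counts were 31 and 31 and no named HOX call changed. The genotype counts stayed at 0 with each library left out, and the bladder count became 1 (Hoxb2) with limma without trend and robust. Values without a call changed sign in 4 of the genes reported, the cause of which was not tested. Hoxb5 between Y/T KO tissues became -0.20 with TPM as deposited, -0.068 at the 75th percentile, -0.021 with FPKM and -0.17 without the 3 bladder libraries, and ran from -0.21 (without bladder 783) to 0.23 with 1 library left out, being -0.00678 without colon 759. Between the same tissues Hoxa13 ran from -0.34 to 0.079 (without colon 780), and Hoxb8 became 0.72 without the 3 bladder libraries. Hoxb13 between genotypes ran from -0.39 to 0.032 (without Ctrl 788) in colon and became -0.012 in bladder without the 3 libraries. Without read counts the error of single low values such as those of Hoxc in colon is unknown, and a TPM of 0 does not show that a gene is silent.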

Other observations

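Chromatin regulators known to act on HOX clusters showed no common direction. Of 17 tested, 5 were higher in Ctrl colon (Cbx2, Eed, Ezh2, Pcgf2 and Suz12, all of Polycomb complexes) and 3 higher in Ctrl bladder (among them Bmi1 and Phc1, Polycomb genes as well), and 3 and 4 in Y/T KO mice. These calls are 47.1% and 41.2% of the 17, beside 50.4% and 51.3% of all genes. Ezh2, the methyltransferase of Polycomb complex 2, ranged from 40.0 to 68.4 TPM in colon and from 26.9 to 37.5 TPM in bladder. Bmi1, a subunit of Polycomb complex 1, ranged from 8.29 to 13.6 TPM in colon and from 17.8 to 20.7 TPM in bladder. None of the 17 passed between genotypes in either tissue in limma, with 0 in colon and 2 in bladder at an unadjusted p under 0.05.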
